A study of Mus musculus with 40 samples.

Results

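The loss of EGFR from endothelial cells of the aorta under a high fat diet (HFD) was described from 10 of the 40 libraries of the study, which held 20 aortas and 20 kidneys. The 10 were 5 aortas of EC-EGFR-KO mice (KO) and 5 of EC-EGFR-WT mice (WT), all fed HFD, and they were chosen by their labels of tissue, genotype and diet, not by a measured value. The study asked what the receptor in endothelial cells contributes to the vascular effects of HFD, and counted polyadenylated RNA per gene by paired-end sequencing. KO mice came from EGFR flox/flox C57BL/6 animals crossed with B6.Cg-Tg(Tek-cre)1Ywa, a line on the C57BL/6J background in which the Tie2 promoter drives Cre. The floxed fragment holds exon 1 of Egfr and is cut out in cells in which Tek (Tie2) is or was active, which besides endothelium include blood-forming cells. WT mice carried the same Cre without LoxP sites. Both groups received a 1:1 mixture of HFD and standard diet for 7 days at about 5 weeks of age and HFD (60% of energy from fat) from 6 weeks of age for 18 weeks. The aortas of mice on the standard fat diet (SFD, 10% of energy from fat, SD in the labels) and the kidneys of mice on HFD are given only beside these. The sex of the animals and the hour of collection are not named in the sources used here. Libraries are called by their label numbers, R-6 to R-10 for WT HFD and R-16 to R-20 for KO HFD, and lists of 5 values follow that order.

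EGFR is a receptor tyrosine kinase. Ligands of the EGF family, such as heparin-binding EGF (Hbegf), betacellulin (Btc) and epiregulin (Ereg), are cut from the cell surface by proteases such as ADAM17 and bind it, and the adaptors Shc1 and Grb2 then lead to Ras and the kinase ERK. ERK switches on immediate-early genes such as Egr1, Fos and Myc, while Spry, Dusp and Errfi1 proteins restrain the signal. In arteries the receptor is found in smooth muscle as well as in endothelium, where it also responds indirectly to vasoactive hormones. A processed pseudogene, the other kind of gene that stood out here, is the copy of a spliced mRNA that was inserted elsewhere in the genome, and it is often so close to its parent gene that a short read can match both.

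The 10 HFD aortas held between 17520161 and 23446949 counts, and levels are given as FPM, counts of a gene per 1000000 counts of the library, whose size was scaled by the trimmed mean of M values (TMM). The defining genes of smooth muscle were abundant in all of them: alpha-actin (Acta2) ranged from 16438 to 29159 FPM and smooth muscle myosin (Myh11) from 7679 to 11414 FPM. The endothelial genes Pecam1 (199 to 873 FPM) and Vwf (74.0 to 473 FPM) were present throughout. Of 55335 genes, 7724 were at 0 in every library, namely those at the end of chromosome 8 and on chromosomes 9, MT, X and Y, and were not tested. In R-16 (KO), 26 genes were over 10 times higher than in any other HFD aorta, against 0 such genes in each of the other 9. The counts of the SFD libraries R-1 (WT) and R-12 (KO) were closer to each other than counting error allows: the chi-square of their difference had a median of 0.0277 per gene, where chance gives 0.455 and every pair of HFD aortas 1.68 or more. They take part in the estimate of the spread and in every SFD value, so SFD values are given with and without them, as are the counts under HFD that move with them. Each group consisted of 5 mice, and since bulk tissue was used, fewer cells of a type and less RNA per cell cannot be told apart.

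The targeted gene was examined first. Egfr (ENSMUSG00000020122, GRCm38 chr11:16752203-16918158, plus strand) was at 36.4, 37.7, 37.2, 39.7 and 51.7 FPM in WT and at 36.9, 41.4, 43.6, 45.7 and 54.7 FPM in KO. The groups overlapped almost fully, with the highest value of each in R-10 and R-20. The means were 40.5 ± 6.36 FPM in WT and 44.5 ± 6.58 FPM in KO (SD, n = 5 each; exact permutation test, two-sided, p = 0.365, where the smallest possible p is 0.00794). The log2 fold change was 0.13 (SE 0.15) with an adjusted p of 0.916 in edgeR's quasi-likelihood test, which is the main test used throughout. Under SFD the same comparison gave 39.6 ± 8.93 FPM in WT and 44.0 ± 5.70 FPM in KO (SD, n = 5 each), or 0.15 on the log2 scale (0.19 without R-1 and R-12). The count of the whole gene is a weak check of the labels, because smooth muscle and other cells of the wall express Egfr and because the count covers all exons while only exon 1 is floxed. The coding part of that exon, the piece whose loss defines KO, is shown with its start codon in capitals (GRCm38 chr11:16752483-16752570, plus strand, from transcript ENSMUST00000020329.12 with 28 exons).
Egfr exon 1, coding part: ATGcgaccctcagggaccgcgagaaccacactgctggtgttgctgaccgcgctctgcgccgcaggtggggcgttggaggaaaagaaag

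Across the 15122 genes tested (12258 protein-coding genes, 1294 pseudogenes and 1570 others), the quasi-likelihood test called 0 genes between KO and WT under HFD at an adjusted p under 0.05, and the smallest adjusted p was 0.15. At the unadjusted level of p under 0.05 there were 884 genes (5.85%), of which 422 were higher (2.79%) and 462 lower (3.06%) in KO. The kinds of genes differed in direction. Of the protein-coding genes 374 were higher (3.05%) and 174 lower (1.42%), while of the pseudogenes 13 were higher (1%) and 248 lower (19.2%). Without R-16 the protein-coding genes were at 368 higher (3%) and 372 lower (3.03%), and the pseudogenes at 13 higher (1%) and 251 lower (19.4%). Without R-1 and R-12, 378 of 1282 pseudogenes (29.5%) were lower and 16 (1.25%) higher, and the protein-coding genes were at 347 higher (2.83%) and 168 lower (1.37%). The excess of higher over lower protein-coding genes was thus lost without R-16, whereas that of lower over higher pseudogenes was not. Of the 374 higher protein-coding genes, 202 were highest in R-16 and 100 in R-19, and 198 kept an unadjusted p under 0.05 without R-16. The higher genes had the larger differences, with a median log2 fold change of 0.95 in absolute terms against 0.39 for the 174 lower ones.

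Other count tests applied to the same 20 aortas called few genes. The edgeR exact test called 27 (13 higher or 0.086%, all protein-coding, and 14 lower or 0.0926%, all pseudogenes), the likelihood ratio test 28 and the DESeq2 Wald test 25 (9 higher or 0.0599%, and 16 lower or 0.106%). These counts depended on single libraries: without R-16 the exact test called 15, without R-19 it called 17 and without R-1 and R-12 127, and the quasi-likelihood test called 21 (20 pseudogenes) without R-1 and R-12, 2 (both pseudogenes) without R-10 and 2 without R-12 alone. The 3 tests shared 22 genes, 8 protein-coding genes higher in KO and 14 processed pseudogenes lower in KO. In 14 of the 22 the KO and WT values did not overlap, as in 0.337% (higher) and 0.608% (lower) of all genes tested, but the 22 were chosen by their small p-values in this comparison, so nothing is read from that count. Without R-16, 7 of the 8 and 14 of the 14 kept an unadjusted p under 0.05 in the quasi-likelihood test. With all libraries each of these genes had an adjusted p of 0.15 or more in edgeR's quasi-likelihood test, so they are given as the candidates with the smallest p-values and not as changed genes.

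Among the 8 genes with higher levels in KO, 2 are transcription factors that growth factor signalling induces. Egr2, a zinc finger factor, was at 1.31, 2.47, 1.17, 2.24 and 1.4 FPM in WT and at 3.88, 3.36, 7.58, 12.8 and 4.59 FPM in KO. Every KO aorta lay above every WT aorta, with R-19 highest. The log2 fold change was 1.9 (SE 0.37; unadjusted p = 5.61e-05, adjusted p = 0.212 in edgeR's quasi-likelihood test), 2.04 without R-16 and 0.23 under SFD (0.28 without R-1 and R-12). Myc, which drives growth and division, was at 1.81, 2.31, 3.5, 3.13 and 3.69 FPM in WT and at 9.23, 3.70, 7.08, 10.9 and 5.23 FPM in KO. The groups of Myc touched, with R-10 and R-17 nearly equal, and R-19 and R-16 were the highest. Its log2 fold change was 1.32 (SE 0.28), 1.22 without R-16 and 0.04 under SFD (0.06 without R-1 and R-12). The difference of the KO effect between the diets had an unadjusted p of 0.00427 for Egr2 and 0.00402 for Myc in edgeR's quasi-likelihood test, and an adjusted p of 1.0 for both. Without R-1 and R-12 the unadjusted p of edgeR's test was 0.0109 for Egr2 and 0.00952 for Myc.

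Socs3 and Cxcl2 belong to the response to cytokines. Socs3, the feedback inhibitor of JAK/STAT signalling, was at 13.2, 19.8, 6.18, 40.4 and 16.4 FPM in WT and at 31.0, 66.1, 103, 587 and 39.6 FPM in KO. The value of R-19 was far above the rest, and R-9 of WT lay above R-16 and R-20 of KO. The log2 fold change of 3.11 (SE 0.75) was 3.37 without R-16 and 1.66 without R-19. Cxcl2, a chemokine that draws neutrophils, was at 0.856, 0.330, 0.233, 1.17 and 0.351 FPM in WT and at 12.2, 3.17, 2.29, 16.5 and 1.04 FPM in KO, a log2 fold change of 3.55 (SE 0.74; 3.26 without R-16). R-16 and R-19 were high and R-20 lay below R-9, so the groups overlapped. Promoters of Egr2 and Socs3 are shown as examples from the growth factor and cytokine responses (250 bases before the start site, taking the start with a match where a gene has several, RefSeq annotation of GRCm38.p6, chr10:67537316-67537565, plus strand, and chr11:117969367-117969616, minus strand). Capitals mark a CArG box, the binding motif of serum response factor, in Egr2 and a match to TTCNNNGAA, a STAT motif, in Socs3. In the same window on either strand, a CArG box was found in 1.62% and the STAT motif in 8.13% of 27025 genes. Of 9 tested ERK targets with such a window, only 1, Egr2, had a CArG box, and 0 had a cAMP response element (TGACGTCA). A match is a description of the letters only.
Egr2 promoter: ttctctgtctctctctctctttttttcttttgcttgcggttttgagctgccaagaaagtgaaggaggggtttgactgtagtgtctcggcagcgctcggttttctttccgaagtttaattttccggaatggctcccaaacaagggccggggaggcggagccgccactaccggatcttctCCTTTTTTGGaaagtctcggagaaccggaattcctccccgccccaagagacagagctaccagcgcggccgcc
Socs3 promoter: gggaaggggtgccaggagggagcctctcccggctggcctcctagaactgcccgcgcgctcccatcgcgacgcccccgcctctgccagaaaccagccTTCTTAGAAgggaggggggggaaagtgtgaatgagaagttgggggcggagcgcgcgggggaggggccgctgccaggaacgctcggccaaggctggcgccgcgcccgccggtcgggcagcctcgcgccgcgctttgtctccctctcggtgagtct

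The other 4 are mainly genes of myeloid and antigen-presenting cells. Cd14, the lipopolysaccharide co-receptor of macrophages, was at 6.90, 7.09, 7.23, 8.05 and 6.97 FPM in WT and at 57.4, 10.2, 14, 21.6 and 9.28 FPM in KO. The WT aortas were alike, every KO aorta was above them and R-16 was highest, and the log2 fold change of 1.63 (SE 0.38) was 0.93 without R-16. March1, a ubiquitin ligase of antigen-presenting cells, was at 1.51, 1.48, 0.933, 1.01 and 1.35 FPM in WT and at 5.74, 2.14, 2.21, 2.51 and 3.36 FPM in KO (log2 fold change 1.34, SE 0.29; 1.02 without R-16), again without overlap. Lilr4b, an inhibitory receptor with a close paralog, was at 3.12, 2.42, 2.86, 3.30 and 1.58 FPM in WT and at 25.9, 3.9, 4.25, 11.7 and 3.41 FPM in KO (log2 fold change 1.88, SE 0.46; 1.13 without R-16). Its lowest KO aorta was just above its highest WT aorta. Lyz1, a lysozyme that shares much of its sequence with Lyz2 so that reads may be split between them, was at 1.01, 0.440, 0.641, 1.01 and 0.761 FPM in WT and at 61.4, 2.39, 1.75, 1.17 and 0.987 FPM in KO. Here R-16 alone set the size: the log2 fold change of 4.12 (SE 1.04) was 1.02 without it, with an unadjusted p of 0.0562 in the quasi-likelihood test of edgeR. R-20 lay within the WT range of Lyz1.

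**Figure D1:**
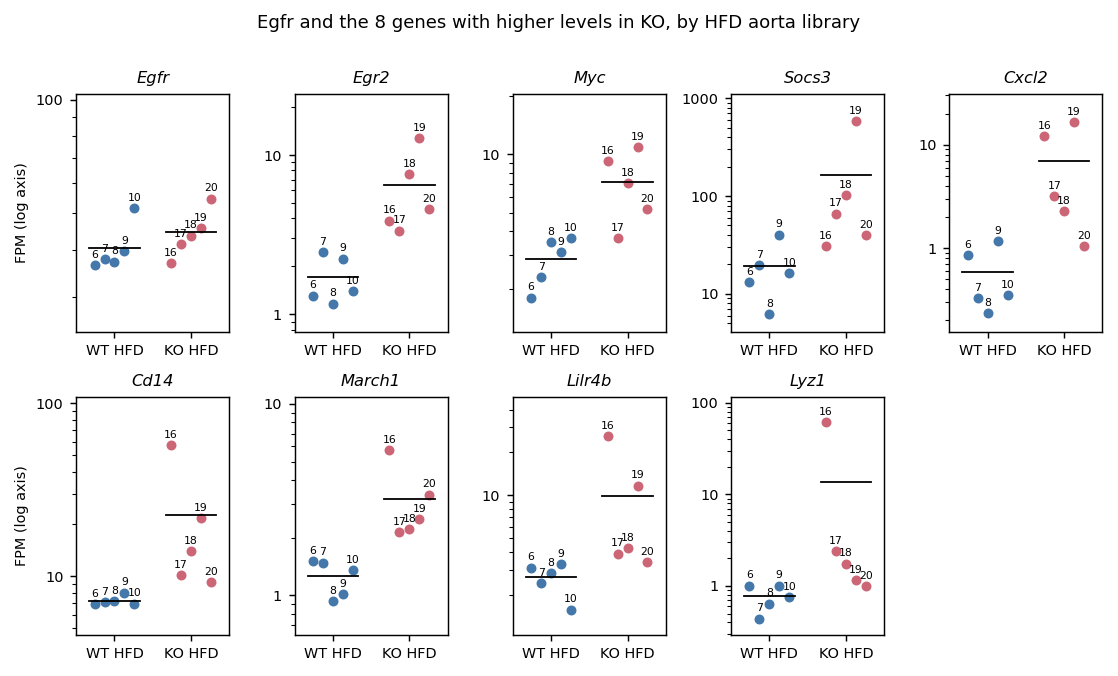
Levels of Egfr and of the 8 protein-coding genes higher in KO by 3 count tests, in FPM on a log axis, with 1 point per HFD aorta labelled by its number and a line at the mean of each group (n = 5). Egfr overlaps between the groups, Egr2, Cd14, March1, Lilr4b and Myc do not or only just touch, and the highest KO point is R-16 or R-19 in each of the 8.

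Myeloid genes were then read as a list of 24 markers of macrophages and neutrophils. As in all lists below, members with low counts or in the part of the genome without counts were not tested, and since a member high in 1 group passes the filter more easily, counts cover the tested members only. The numbers at an unadjusted p under 0.05 over all 15122 genes also moved with the libraries left out. Without R-16, 425 were higher and 725 lower, without R-10 617 and 842, and without R-19 356 and 338. Without R-1 and R-12 they were 394 and 588 of 15080. Of the 18 myeloid genes tested, 8 were higher and 0 lower at an unadjusted p under 0.05 (2.79% and 3.06% of all genes tested), with a median log2 fold change of 0.63, against 0.01 over all genes tested. Without R-16, 5 were higher and the median was 0.50. Csf1r, the receptor of the growth factor on which macrophages depend, was at 56.1, 47.3, 41.6, 40.6 and 46.9 FPM in WT and at 90.6, 60.6, 62.7, 85.7 and 77.7 FPM in KO (log2 fold change 0.70, SE 0.20; 0.62 without R-16). Adgre1, which encodes the macrophage antigen F4/80, was at 12.7, 8.30, 11.3, 12.5 and 13.9 FPM in WT and at 55.0, 17.2, 17.3, 23.3 and 21.9 FPM in KO (log2 fold change 1.20, SE 0.35; 0.76 without R-16). In both genes, as in Cd14 and Lyz2, the groups did not overlap. That was so in 4 of the 18, against 0.337% (higher) of all genes tested. Lyz2, the lysozyme of macrophages, was at 184, 156, 144, 130 and 116 FPM in WT and at 1875, 196, 186, 267 and 186 FPM in KO (log2 fold change 1.89, SE 0.52; 0.51 without R-16), so that 4 KO aortas lay close above WT and R-16 far above. Itgam, the integrin CD11b, was at 99.3 FPM in R-16 and at 1.52 to 4.59 FPM in the other 9 (log2 fold change 0.50 without R-16). The complement genes C1qa, C1qb and C1qc and the resident macrophage genes Mrc1 and Cd163 had log2 fold changes between 0.37 and 0.67 with overlapping groups, and the neutrophil genes S100a8 and S100a9 had -0.34 and 0.06. The summed level of the list was 389 to 602 FPM in WT and 550 to 2743 FPM in KO, and 2 of 5 KO aortas had a mean score above every WT aorta. Under SFD the median of the list was 0.20 (0.25 without R-1 and R-12) and in kidneys under HFD 0.09. Cd68 (0.77) and Itgax (1.23) were the other members higher at that p, and Trem2, Gpnmb and Fcgr1 had unadjusted p-values over 0.05 in edgeR's quasi-likelihood test.

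Further genes of leukocytes were among those named for small p-values or for large fold changes without overlap. Stap1 (log2 fold change 1.54), Runx3 (1.82), Nfam1 (1.66) and Msr1 (1.76) are signalling adaptors, factors and receptors of lymphoid or myeloid cells. In all 4 the KO aortas lay above the WT aortas, as in 0.337% of all genes tested, with R-16 highest. Stap1 and Runx3 were named for small p-values, and Nfam1 and Msr1 by a rule that required separate groups. Nothing is therefore read from that separation. Without R-16 the log2 fold changes of Stap1, Runx3, Nfam1 and Msr1 were 1.22, 1.56, 0.89 and 0.39. Prg4, the lubricin of joint surfaces, was at 4.08 to 6.15 FPM in WT but at 542, 20.3, 4.66, 6.72 and 7.11 FPM in KO, and its log2 fold change of 4.55 (SE 1.09) was 0.96 without R-16. R-16 also stood apart in lymphoid markers: the summed level of that list was 25.1 to 79.2 FPM in WT and 33.3 to 478 FPM in KO, and 478 FPM was its value in R-16. Of 26 listed lymphoid genes 20 were tested, and 20 had a positive log2 fold change (median 1.42; 5 of them, Ptprc, Cd37, Cd4, Ighm and Ms4a1, higher at an unadjusted p under 0.05, against 2.79% of all genes), but without R-16 the median was -0.40 with 8 positive and Cd37, the B cell gene Ms4a1 and Ighm were at 0.14, -0.80 and -0.13. Ptprc, the common leukocyte antigen CD45, was at 5.89, 4.34, 3.56, 5.42 and 4.62 FPM in WT and at 24.0, 9.30, 5.29, 10.6 and 9.67 FPM in KO, a log2 fold change of 1.30 (0.87 without R-16) with R-18 inside the WT range. Under SFD the lymphoid median was 2.11 (2.30 without R-1 and R-12), and there too 1 KO library stood apart: the score was 2.48 in R-11 and -0.49 to -0.07 in the other 4 KO aortas, against -0.64 to -0.17 in WT. Plasma cell genes had a median of 0.41 (0.11 without R-16), with Xbp1 and Sdc1 at 0.13 and 0.01. Whether lymphoid or other cells had a part in the values of R-16 was not tested.

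Few members of the EGFR pathway itself passed even an unadjusted threshold. Of 10 tested receptors and ligands, 1 was higher and 0 lower at an unadjusted p under 0.05, where 2.79% of all genes were higher (median log2 fold change 0.02). The receptors Erbb2 (0.02), Erbb3 (-0.23) and Erbb4 (0.02) and the ligands Btc (-0.05), Tgfa (0.56), Egf (-0.33) and Ereg (0.53) had unadjusted p-values over 0.05 in the quasi-likelihood test of edgeR. Hbegf was the exception, at 35.5, 40.4, 37.0, 39.4 and 35.8 FPM in WT and at 34.4, 35.4, 43.7, 99.3 and 52.9 FPM in KO. R-18, R-19 and R-20 lay above WT and R-16 and R-17 did not, and the log2 fold change was 0.50 (SE 0.22), 0.62 without R-16 and -0.26 under SFD (-0.32 without R-1 and R-12). Among 23 adaptors, feedback regulators and sheddases, 2 were higher (2.79% of all genes) and 0 lower (median 0.12). These were phosphatases that switch off ERK and that ERK induces: Dusp6 was at 27.7, 45, 23.9, 44.6 and 33.6 FPM in WT and at 32.7, 53.4, 53.7, 103 and 38.7 FPM in KO (log2 fold change 0.69, SE 0.30), and Dusp5 had a log2 fold change of 0.85 (SE 0.34). In both, R-19 was highest. Errfi1, an inhibitor of EGFR, ranged from 39.0 to 158 FPM in WT and from 39.7 to 211 FPM in KO, and the adaptors Shc1 (0.09) and Grb2 (-0.05), the protease Adam17 (0.22) and the inhibitors Spry1 (0.43) and Spry2 (0.34) overlapped between the groups. Without R-19, the number of genes at an unadjusted p under 0.05 was 0 in each of these 2 lists.

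The transcription targets of ERK, by contrast, stood higher in KO. Of 17 listed and 16 tested, 10 were higher and 0 lower at an unadjusted p under 0.05 and 15 had a positive log2 fold change (median 1.14, against 0.01 over all genes tested, of which 2.79% were higher at that p). The immediate-early factor Fos was at 301, 469, 203, 872 and 180 FPM in WT and at 237, 988, 1481, 4129 and 500 FPM in KO (log2 fold change 1.86, SE 0.66). Egr1 was at 200, 268, 141, 369 and 153 FPM in WT and at 179, 504, 999, 1482 and 410 FPM in KO (1.66, SE 0.48). Junb was at 187, 153, 107, 330 and 103 FPM in WT and at 140, 375, 544, 1550 and 246 FPM in KO (1.70, SE 0.56). In all 3 the order was the same, with R-19 highest, R-18 and R-17 next, and R-16 within the WT range. Fosb (2.51), Jun (1.22), Ier2 (1.36), Egr3 (1.05) and Ier3 (0.72) were also higher, whereas Ccnd1 (0.47), Emp1 (0.39), Phlda1 (0.24), Etv5 (0.10), Etv4 (0.04) and Plaur (-0.03) had unadjusted p-values over 0.05 by the quasi-likelihood test of edgeR. Of the 16, Egr2 and Myc alone had groups that did not overlap, both higher in KO, against 0.337% (higher) of all genes tested.

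Averaged over the 16 genes, the score (mean of log2(FPM + 0.5) relative to each gene's mean over the 20 aortas) was -0.36, -0.07, -0.56, 0.26 and -0.43 in WT and -0.23, 0.39, 0.91, 1.64 and 0.27 in KO. R-17 to R-20 lay above every WT aorta, R-20 only just, and R-16 did not. The size rested largely on R-19: without it the median was 0.68 with 4 genes higher, and without R-16 it was 1.24 with 11 higher. The median was 0.32 under SFD (0.39 without R-1 and R-12) and -0.10 in kidneys under HFD, and the difference of the KO effect between the diets had a median of 0.68, with 2 of the 16 at an unadjusted p under 0.05. Other inducible genes were high in R-19 too. The stress factor Atf3 was at 12.5, 31.0, 23.2, 67.1 and 37.1 FPM in WT and at 15.4, 46.7, 137, 807 and 97.3 FPM in KO (log2 fold change 2.69, SE 0.82), and the list of heat shock and unfolded protein response genes scored 0.78 in R-19 against -0.23 to 0.27 in the other 9 aortas (3 of 17 genes higher, Atf3, Chac1 and Sdf2l1, against 2.79% of all genes; 6 without R-16 and 0 without R-19; median 0.18). The chemokines Ccl2 and Cxcl1 reached 25.2 and 39.1 FPM in R-19, with log2 fold changes of 1.46 and 1.44. Endothelial scores were also higher in R-17, R-18 and R-19 than in R-16, and the part of these features in the ERK result was not tested.

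**Figure D2:**
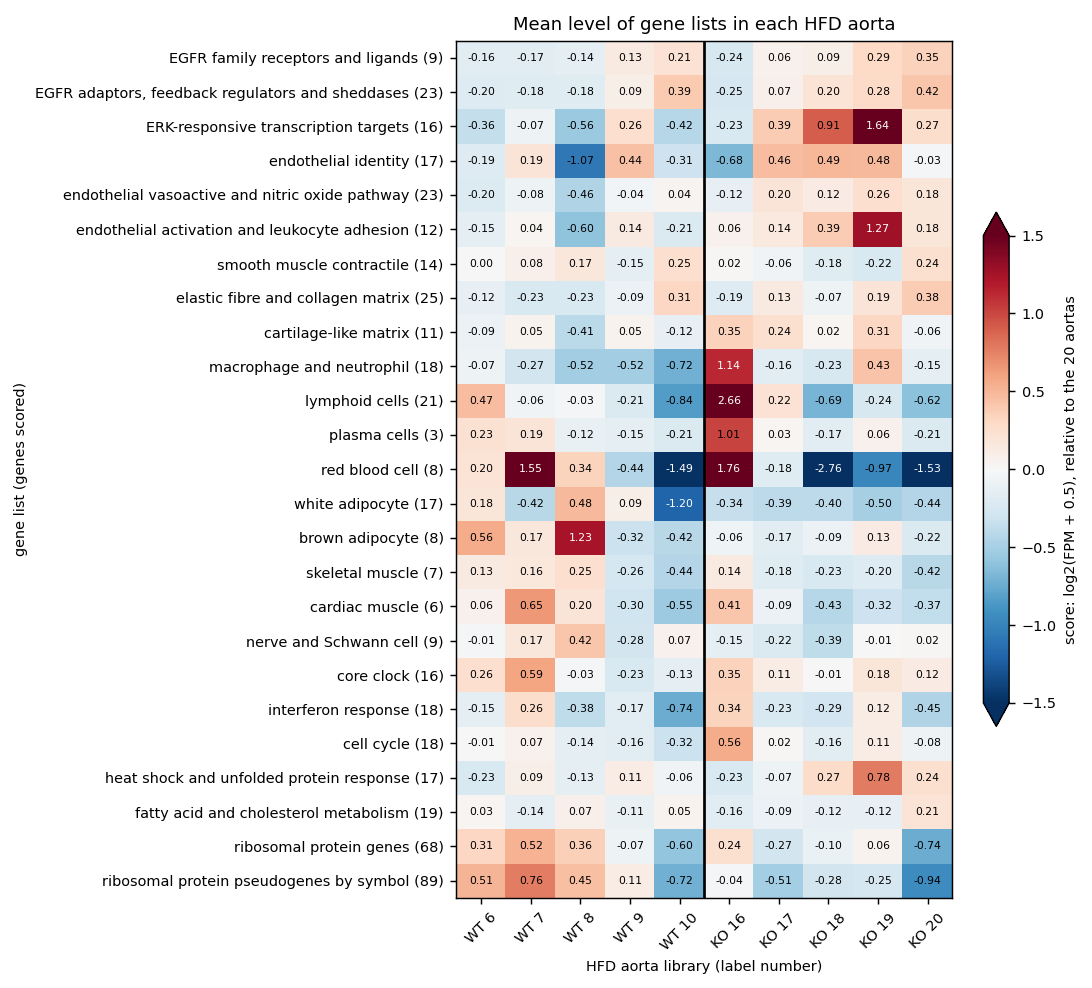
Score of each gene list (rows, number of genes scored in brackets) in each HFD aorta (columns, WT left and KO right of the line), as the mean of log2(FPM + 0.5) relative to each gene's mean over the 20 aortas, with the colour scale ending at 1.5 either way. ERK targets are highest in R-19 (1.64), and lymphoid (2.66) and myeloid (1.14) genes in R-16.

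Endothelial identity genes leaned higher in KO without passing the test. Of 17 tested, 0 were higher and 0 lower at an unadjusted p under 0.05, and 15 had a positive log2 fold change with a median of 0.32. Pecam1 (CD31) was at 381, 663, 199, 787 and 411 FPM in WT and at 307, 786, 873, 805 and 566 FPM in KO, a log2 fold change of 0.45 (SE 0.38). Vwf had 0.42 (SE 0.49) and Tek, whose promoter drives the Cre, 0.74 (SE 0.51). The list as a whole varied more between aortas than between genotypes, from a score of -1.07 in R-8 and -0.68 in R-16 to 0.50 in R-18. Under SFD its median was 0.50 (0.65 without R-1 and R-12). Of 23 vasoactive and nitric oxide pathway genes, 5 were higher, against 2.79% of all genes, and 0 lower (median 0.20). Without R-19 there were 3 higher, and without R-20 the median was 0.01. Gch1, which makes the cofactor of nitric oxide synthase, was at 3.17, 4.34, 2.1, 3.80 and 2.69 FPM in WT and at 5.85, 5.02, 4.41, 5.28 and 4.64 FPM in KO (log2 fold change 0.64, SE 0.23; 0.58 without R-16). It was the only one of the 23 whose groups did not overlap, against 0.337% (higher) of all genes tested. The nitric oxide synthase Nos3 itself was at 19.4 to 73.4 FPM in WT and 35.3 to 85.2 FPM in KO (0.51, SE 0.36).

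The other genes of this list at an unadjusted p under 0.05 act in prostanoid and endothelin signalling. The cyclooxygenase Ptgs1 was at 15.4, 28.5, 11.1, 21.7 and 14 FPM in WT and at 42.3, 30.2, 33.3, 28.2 and 18.9 FPM in KO (log2 fold change 0.75, SE 0.27). The inducible cyclooxygenase Ptgs2 had 1.93 (SE 0.66), with 178 FPM in R-19 and at most 36.6 FPM in the other 9 aortas. Endothelin 1 (Edn1), the constrictor peptide, was at 23.2, 19.2, 11, 52.6 and 31.7 FPM in WT and at 21.1, 68.0, 77.4, 73.7 and 30.5 FPM in KO (0.97, SE 0.44), high in R-17 to R-19 and within the WT range in R-16 and R-20. Its receptor Ednrb was at 55.1 FPM in R-16 and at 3.30 to 10.5 FPM in the other 9, so that the log2 fold change of 1.59 was 0.39 without R-16. The receptors Ednra (-0.12) and Tbxa2r (-0.11), the prostacyclin synthase Ptgis (-0.10), soluble guanylate cyclase (Gucy1a1 0.01, Gucy1b1 0.02) and Cav1 (-0.03) were near 0. Of 11 genes of endothelial activation and leukocyte adhesion, 2 were higher (Ccl2 and Cxcl1, against 2.79% of all genes; median 0.33, without R-19 0 genes), while Vcam1 (0.33), Sele (1.48), Selp (0.89) and Icam2 (0.66) overlapped.

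With all libraries no tested member of the lists of contractile genes and of elastic fibre and collagen genes passed even the unadjusted threshold. Of 14 contractile genes 0 were higher and 0 lower (median -0.09), with Acta2 at -0.36 (SE 0.20). Without R-16, 2 were lower, Acta2 (-0.48) and the intermediate filament gene Des (-0.82, against -0.45 with it), while Myh11 was at -0.09 (SE 0.11) with all libraries. Of 25 genes of elastic fibres and collagen 0 were higher and 0 lower (median 0.15; 1 lower without R-10), with elastin (Eln) at 0.19 (SE 0.20) and Mgp, an inhibitor of calcification, at -0.37 (SE 0.23). Sox9 (0.73, SE 0.31) and Prg4 were the 2 higher of 11 cartilage-like genes (median 0.16), against 2.79% of all genes. Cell cycle genes counted 4 higher of 19, against 2.79% of all genes (median 0.14). Without R-16 they counted 2 (median 0.02), as they did without R-19. Top2a, the topoisomerase of dividing cells, was at 2.17, 2.20, 2.16, 2.24 and 1.29 FPM in WT and at 4.15, 3.41, 3.16, 3.63 and 2.76 FPM in KO (log2 fold change 0.77, SE 0.20; 0.69 without R-16). The groups of Top2a did not overlap, as in 0.337% (higher) of all genes tested, while those of Mki67 (0.65), Rrm2 (0.72) and Aurkb (0.98) did.

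Of the 174 protein-coding genes lower in KO at an unadjusted p under 0.05, 23 differed by more than 2-fold. Their median log2 fold change was 0.39 in absolute terms. Abhd6, a lipase that hydrolyses the endocannabinoid 2-arachidonoylglycerol, was at 15.5, 16.8, 16.7, 16.4 and 15.7 FPM in WT and at 13.4, 12.3, 12.5, 13.8 and 12.6 FPM in KO. Both groups were tight and did not overlap, and the log2 fold change was -0.32 (SE 0.08; unadjusted p = 0.00106, adjusted p = 0.418 in edgeR's quasi-likelihood test), -0.34 without R-16 and 0.01 under SFD (0.02 without R-1 and R-12). Snrpd3, a core protein of the spliceosome, was at 92.3, 105, 102, 82.1 and 73.1 FPM in WT and at 73.1, 60.8, 61.5, 65.2 and 64.0 FPM in KO (-0.48, SE 0.15; -0.53 without R-16), and R-10 and R-16 met. The groups were separate, too, in Tmed9 (-0.41), Mocs3 (-0.43), Lyrm2 (-0.23) and the zinc finger gene Zfp972 (-1.57), and they overlapped in Rpa3 (-0.50), Rsph3b (-0.41), Coprs (-0.48), Gm10282 (-0.68) and Gm3550 (-1.21). Every KO aorta lay below every WT aorta in 25 (0.204%) of the protein-coding genes. Apart from Zfp972, named for its small p-value, the separate ones met a naming rule that required separate groups. Nothing is therefore read from their separation. Of 19 genes of fatty acid and cholesterol metabolism 0 were higher and 2 lower, against 3.06% of all genes (median 0.02; 1 lower without R-19). Angptl4, an inhibitor of lipoprotein lipase, was at 27.6, 26.6, 29.6, 24.5 and 20.8 FPM in WT and at 13.8, 21.1, 11.4, 17.5 and 12.8 FPM in KO (-0.75, SE 0.29; -0.62 under SFD and -0.79 there without R-1 and R-12), R-17 and R-10 overlapping, and Acadl, a dehydrogenase of fatty acid oxidation, had -0.21 (SE 0.09).

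Genes of tissues around the vessel also leaned lower. Of 17 white adipocyte genes 1 (Plin4, 0.00) had a log2 fold change above 0 and the rest were below it (median -0.49, 0 at an unadjusted p under 0.05; -0.79 under SFD and -1.01 there without R-1 and R-12), with the desaturase gene Scd1 at -0.24. Their scores in KO (-0.50 to -0.34) lay within those of WT, where R-10 was lowest at -1.20 and R-8 highest at 0.48. Without R-10, 6 of the 17 were lower, against 842 of all 15122 genes, and without R-16 2, against 725 (4.79%). Under SFD without R-1 and R-12, 10 were lower, against 368 (2.41%) of 15254 genes. Brown adipocyte genes counted 4 lower of 9, against 3.06% of all genes (median -0.52), and 2 without R-19. Their defining gene Ucp1 was at 20.3, 11.3, 74.5, 4.02 and 1.23 FPM in WT and at 6.39, 4.24, 6.08, 5.07 and 2.17 FPM in KO, high in R-6 to R-8 only, and Cox7a1, Cox8b and Otop1 followed with log2 fold changes of -1.47, -1.85 and -1.64. The skeletal muscle list counted 1 lower of 8 (Myl1, -1.26, against 3.06% of all genes; median -0.12; 2 without R-10 and 0 without R-19). Cardiac (Ryr2 0.28, Tnnt2 -0.02; median -0.40) and nerve genes (Uchl1 -0.12, Pmp22 -0.02; median -0.27) counted 0 of 6 and 0 of 9 (1 cardiac gene lower without R-16). The mesothelial list held 1 tested gene, Krt18 (0.11). Red blood cell genes ranged widely within both groups. The globin gene Hba-a1, which has a near-identical copy, ranged from 650.0 to 13030 FPM in WT and from 124 to 21624 FPM in KO (Hbb-bs likewise). The median of the list, -0.21, was -2.15 without R-16 and 0.82 without R-7 of WT, so its sign depended on single libraries. Of the 8 tested, 0 were lower with all libraries and 4 without R-16, where 4.79% of all genes were lower. Core clock genes (Tef -0.43, Nr1d1 0.03; median -0.17) counted 0 of 16, and without R-16 3 lower (Per3, Bhlhe41 and Dbp), against 4.79% of all genes. Interferon response genes counted 1 higher of 20 (Oas2, against 2.79% of all genes, and 0 without R-16, 7.10 FPM in R-16 and at most 2.19 FPM elsewhere; median 0.12).

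A difference shared by many genes was the lower level of processed pseudogenes. The 1294 pseudogenes tested had a median log2 fold change of -0.30, with 928 (71.7%) below 0, against 0.02 over protein-coding genes, and in 62 of them (4.79%) every KO aorta lay below every WT aorta, against 25 (0.204%) of the protein-coding genes. Within the pseudogenes, the 1053 annotated as processed had a median of -0.40 with 239 lower, while the 92 unprocessed ones had 0.16 with 1 lower. Gm5451 was at 53.6, 50.5, 50, 37.8 and 24.6 FPM in WT and at 20.4, 18.3, 21.6, 18.4 and 17.8 FPM in KO. All KO aortas were alike and below WT, of which R-10 was lowest. Its log2 fold change was -1.17 (SE 0.20; unadjusted p = 1.45e-05, adjusted p = 0.15 in edgeR's quasi-likelihood test), -1.19 without R-16 and -0.60 under SFD (-0.72 without R-1 and R-12). The adjusted p of the same test was 0.028 without R-1 and R-12 and 0.009 without R-10. Gm11221 was at 3.93, 3.35, 3.32, 3.69 and 2.81 FPM in WT and at 1.15, 0.925, 1.33, 1.55 and 1.38 FPM in KO (-1.43, SE 0.26), with a clear gap between the groups. Rpl31-ps9 was at 53.2, 63.8, 56.1, 37.9 and 19.1 FPM in WT and at 24.1, 16.6, 20.2, 21 and 14.9 FPM in KO (-1.25, SE 0.31), and here R-10 of WT lay within the KO range. The other 11 of the 14 had log2 fold changes from -0.73 (Gm5469) to -2.16 (Gm11826), and R-10 was the lowest WT library in 13 of the 14.

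Each pseudogene was aligned to the protein-coding transcripts of GENCODE M21, and the closest gene over at least 50% of its length is called its parent. Gm5451 (GRCm38 chr13:66874081-66874659, plus strand) is closest to Rpl9, Rpl31-ps9 (chr1:129801387-129801764, minus strand) to Rpl31, both genes of the large ribosomal subunit, and Gm11221 (chr4:69691978-69692574, plus strand) to Fcf1, a factor in ribosome assembly. Over 579 aligned bases Gm5451 and Rpl9 were identical at 572, with a longest identical run of 245 bases. Rpl31-ps9 and Rpl31 were identical at 376 of 378 bases (longest run 236), and Gm11221 and Fcf1 at 585 of 597 (longest run 182). Windows of 150 bases are shown to let these differences be seen, with the bases that differ in capitals. Counted from 1 at the first coding base and with the parent's base first, the differences within the windows of coding bases 221 to 370 of Rpl9 and 214 to 363 of Rpl31 are G246A, G255A, G310C and C370T in Gm5451 and C237T and C363T in Rpl31-ps9. Those within bases 287 to 436 of Fcf1 are G322A, T329C, T350A, C352A, T372C, C426G and G436A in Gm11221. The windows lie in 2 exons of Rpl9, 3 of Rpl31 and 3 of Fcf1, but in 1 uninterrupted stretch of each pseudogene (chr13:66874301-66874450, chr1:129801402-129801551 and chr4:69692264-69692413).
Gm5451: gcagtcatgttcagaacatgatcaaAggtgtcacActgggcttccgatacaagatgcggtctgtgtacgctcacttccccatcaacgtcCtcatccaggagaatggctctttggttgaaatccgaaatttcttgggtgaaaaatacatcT
Rpl9: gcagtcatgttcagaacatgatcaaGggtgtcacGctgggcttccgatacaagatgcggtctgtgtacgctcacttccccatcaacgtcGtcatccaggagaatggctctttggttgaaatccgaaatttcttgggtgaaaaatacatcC
Rpl31-ps9: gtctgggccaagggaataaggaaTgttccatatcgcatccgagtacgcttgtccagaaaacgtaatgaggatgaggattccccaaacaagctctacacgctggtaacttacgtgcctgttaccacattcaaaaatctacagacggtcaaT
Rpl31: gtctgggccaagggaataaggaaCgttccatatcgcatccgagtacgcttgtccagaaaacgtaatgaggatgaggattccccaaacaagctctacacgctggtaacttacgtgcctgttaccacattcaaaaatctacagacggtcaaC
Gm11221: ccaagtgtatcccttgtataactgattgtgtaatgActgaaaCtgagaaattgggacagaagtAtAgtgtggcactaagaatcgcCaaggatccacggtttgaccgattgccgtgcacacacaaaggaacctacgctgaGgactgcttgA
Fcf1: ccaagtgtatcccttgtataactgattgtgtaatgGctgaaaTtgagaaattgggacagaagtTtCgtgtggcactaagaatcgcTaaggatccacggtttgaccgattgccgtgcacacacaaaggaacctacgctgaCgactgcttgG

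The parents differed less between the groups than the pseudogenes. Rpl9 had a log2 fold change of -0.27, Fcf1 of -0.18 and Rpl31 of -0.55, the last from a mean of 722 FPM in WT to 493 FPM in KO. Of the 14 pseudogenes 13 had a parent, with identities of 94.0% (Gm2999 and Eif4a2) to 99.5% (Rpl31-ps9 and Rpl31), and the parents ranged from -0.55 (Rpl31) to 0.07 (Eif4a2), with none at an unadjusted p under 0.05 by edgeR's quasi-likelihood test. Over all 779 processed pseudogenes with a tested parent, the median was -0.55 with 208 lower (26.7%; 317 without R-1 and R-12). Over their 429 parents it was -0.12 with 12 lower and 1 higher, against 3.06% and 2.79% of all genes. Without R-10, 54 parents were lower, against 842 of all 15122 genes, and without R-16 20, against 725 (4.79%). Leaving out any 1 of the 10 aortas gave medians of -0.65 to -0.47 for the pseudogenes and -0.18 to -0.07 for the parents. The mean score of 712 of the 779 pseudogenes was 0.26, 0.375, 0.215, 0.107 and -0.331 in WT and -0.262, -0.349, -0.265, -0.261 and -0.458 in KO. R-10 of WT thus lay within the KO range, and the other WT aortas above it. Identity classes were formed over all 1027 processed pseudogenes with a parent, tested or not. Those with an identity of at least 95% had a median of -0.47 (899 genes, 24.6% lower at an unadjusted p under 0.05). Those of 90% to under 95% had 0.02 (96 genes, 14.6% lower) and those under 90% 0.07 (32 genes, 6.2% lower), against 3.06% lower of all genes. Where the parent lies in the part of the genome without counts, the median of 237 processed pseudogenes was -0.07 with 25 lower (10.5%, against 3.06% of all genes). The counting of reads with several positions is not given in the sources used here, so the counts of such pseudogenes and of their parents cannot be separated with certainty.

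**Figure D3:**
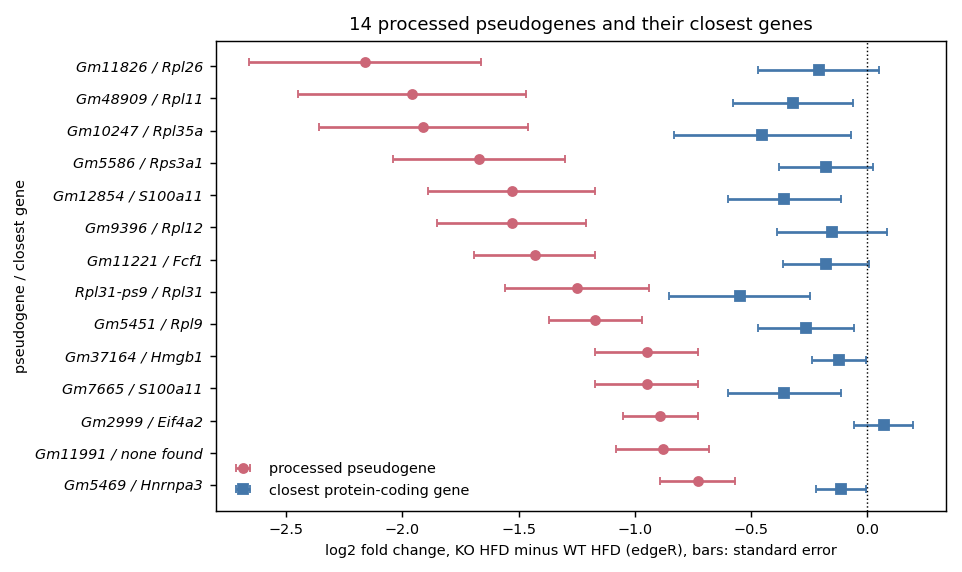
Log2 fold changes (KO HFD minus WT HFD, edgeR) with standard errors for the 14 processed pseudogenes lower in KO by 3 count tests (circles) and for the protein-coding gene closest to each in sequence (squares, none found for Gm11991). Each circle lies left of its square, with the squares between -0.55 (Rpl31) and 0.07 (Eif4a2).

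Ribosomal protein genes were frequent among these parents. The 291 processed pseudogenes closest to a ribosomal protein gene had a median of -0.90 with 113 lower, and the 736 with another parent -0.25. Of 97 tested pseudogenes that carry a ribosomal protein symbol, 35 were lower and 0 higher, against 3.06% and 2.79% of all genes (median -0.83; 49 lower without R-10 or without R-1 and R-12), among them Rpl31-ps11 (-2), Rpl36-ps3 (-2.30) and Rps12-ps24 (-1.59). Rps12-ps24 was at 49.7, 55.0, 41.2, 28.8 and 10.4 FPM in WT and at 17, 11.4, 11.1, 14 and 7.85 FPM in KO. R-10 lay inside the KO range and the other WT aortas above it. Of 68 ribosomal protein genes themselves 0 were higher and 0 lower (11 lower without R-10 and 2 without R-16) and 1 had a log2 fold change above 0 (median -0.29, and -0.004 under SFD or -0.012 there without R-1 and R-12), with Rps3a1 at -0.18 and Rplp0 at -0.13. In both lists R-10 and R-20 had the lowest scores of their groups (-0.72 and -0.94 for the pseudogenes). Few pseudogenes were higher in KO: Gm7591 (1.32), closest to Vdac3, Gm7281 (1.24), closest to Sp140, AC154328.1 (1.00), 2700099C18Rik (1.00) and Gm15740 (0.96) had the smallest p-values among the 13.

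**Figure D4:**
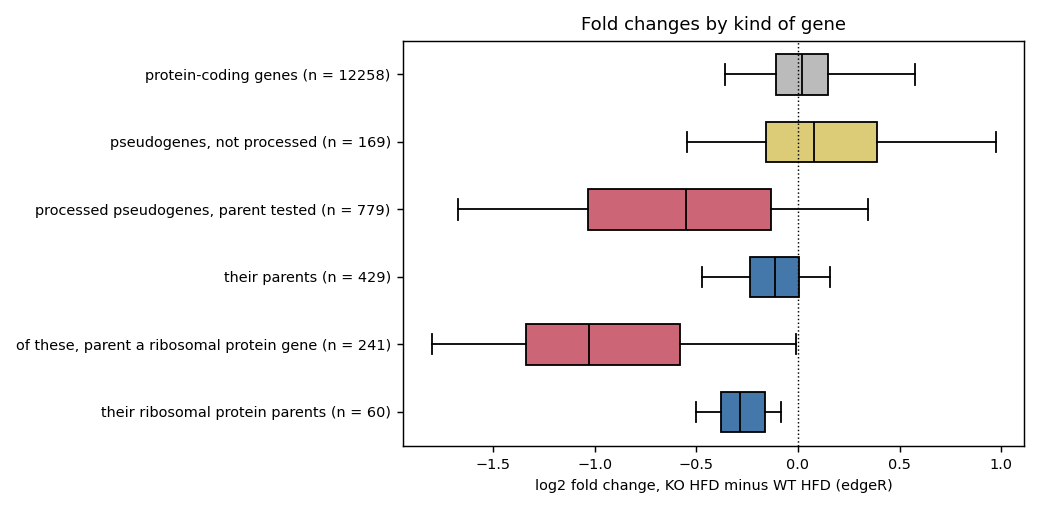
Log2 fold changes (KO HFD minus WT HFD, edgeR) by kind of gene, with boxes from the 25th to the 75th percentile, a line at the median and whiskers from the 5th to the 95th percentile. The medians are 0.02 for protein-coding genes, 0.08 for pseudogenes that are not processed, -0.55 for processed pseudogenes with a tested parent and -1.03 for those with a ribosomal protein parent, against -0.12 and -0.29 for the parents.

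The comparison under SFD, which uses other mice and shares no library with that under HFD, had the same sign for pseudogenes. Across all genes 209 (1.38%) were higher and 136 (0.899%) lower in KO there at an unadjusted p under 0.05, but without R-1 and R-12 the balance turned, with 333 (2.18%) higher and 368 (2.41%) lower of 15254. In both cases 0 passed an adjusted p in edgeR's quasi-likelihood test. The median over the 1294 was -0.14 with 56 lower (4.33%), and -0.22 with 222 lower without R-1 and R-12. In kidneys under HFD the sign was opposite, 0.08 (0.14 without the similarly near-identical libraries a1 and a12). For the 8 higher genes the interaction with diet had an unadjusted p under 0.05 in 8 of 8, and for the 14 pseudogenes in 2 of 14, but the 22 were chosen on the HFD difference, which is part of that interaction. Without R-1 and R-12 the unadjusted p of the interaction was between 0.00952 (Myc) and 0.073 (Lilr4b) for the 8 genes, and their log2 fold changes under SFD lay between 0.06 (Myc) and 1.07 (Cxcl2), against 0.03 (Lyz1) to 0.91 (Cxcl2) with all libraries. The 14 pseudogenes lay between -0.58 (Gm7665) and -1.24 (Gm11826) under SFD without R-1 and R-12. Across all genes 73 (0.483%) had a higher and 54 (0.357%) a lower KO effect under HFD than under SFD at an unadjusted p under 0.05, and 64 (0.42%) and 68 (0.446%) without R-1 and R-12.

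Gene length moved with the same direction. Protein-coding genes whose exons sum to under 1 kb had a median log2 fold change of -0.32 (260 genes, 9.23% lower at an unadjusted p under 0.05), those of 1 to 2 kb -0.14 (1300 genes), those of 2 to 4 kb -0.04, those of 4 to 8 kb 0.05 and those over 8 kb 0.11 (2197 genes, 0.0455% lower). Without R-16 the ends were -0.44 and 0.17, and without ribosomal protein genes the shortest class stayed at -0.32 (251 genes). Under SFD the ends were -0.05 and 0.03 (-0.07 and 0.03 without R-1 and R-12), and in kidneys under HFD they had the opposite sign, 0.22 and -0.13. The shortest class scored 0.32, 0.43, 0.30, -0.16 and -0.52 in WT and 0.26, -0.27, -0.23, -0.004 and -0.51 in KO. R-16 thus lay with R-6 to R-8, and R-9 and R-10 lay with the other KO aortas. The 174 lower protein-coding genes had a median exon length of 2202 bases, against 4055 for the 374 higher ones and 4454 for all. Processed pseudogenes are short as well, 804 of them under 1 kb (median -0.48). The part of gene length in the pseudogene result was not tested.

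**Figure D5:**
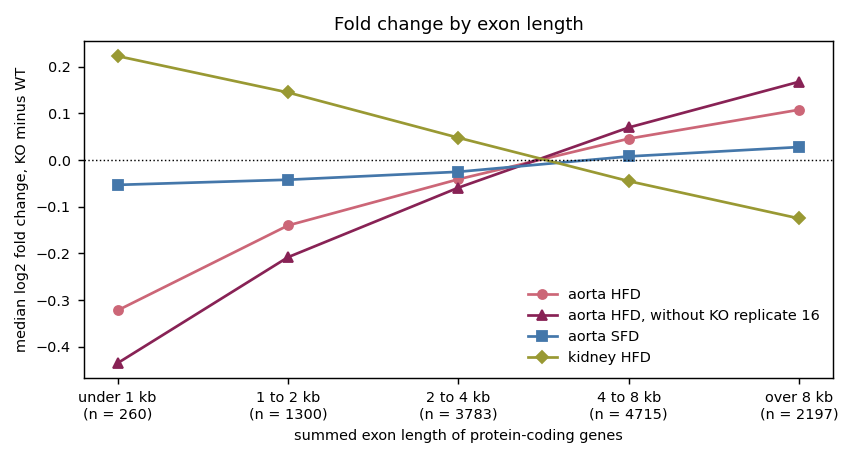
Median log2 fold change of KO against WT by summed exon length of protein-coding genes (classes in kb, number of genes in brackets), for aortas under HFD with all libraries and without KO replicate 16, aortas under SFD and kidneys under HFD. The aorta HFD line runs from -0.32 to 0.11, the SFD line from -0.05 to 0.03 and the kidney line from 0.22 to -0.13.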

How the data were processed

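Total RNA was extracted with TRIzol from aortas cleaned of fat and connective tissue, selected with oligo(dT) and sequenced paired-end. The authors deposited 1 table of read counts per gene for the 20 aortas and 1 for the 20 kidneys, made with featureCounts on GRCm38 (mm10). The submitters' processing notes name HISAT2 (version 2.1.0) and the study's methods TopHat2 as the aligner. Strand and the treatment of reads with several positions are not given in the sources used here. All columns were matched to samples.

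The deposited counts of the 20 aortas were fitted together in R 4.3.3 with edgeR 4.0.16 (TMM, filterByExpr, robust quasi-likelihood test, 1 mean per group). P-values were adjusted by Benjamini-Hochberg over all genes tested (threshold 0.05). The edgeR exact and likelihood ratio tests, DESeq2 1.42.0 and other filters, scalings, covariates and left-out libraries were alternatives. The common biological coefficient of variation was 29%. On simulated counts for 15122 genes in the HFD comparison, with 200 changed, the quasi-likelihood test called 65% of 2-fold and 83% of 3-fold changes and 13 unchanged genes, the exact test 69%, 89% and 29. Pseudogenes were aligned to GENCODE M21 protein-coding transcripts with blastn 2.17.0 (e-value at most 1e-10), and 1176 of 1294 had an alignment over 50% of their length. Sequences of genes came from GENCODE M21 and promoters from RefSeq.

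Gene lists and members were chosen with earlier results of these data known, so list counts and medians are descriptions. The genes named were Egfr, those called by the main test or by all 3 other tests, the 8 protein-coding genes and 5 pseudogenes each way with the smallest p-values, the 5 largest fold changes each way among protein-coding genes with an unadjusted p under 0.05, a mean of at least 5 FPM in a group and no overlap, and per list up to 4 members at that p or else the 2 with the highest mean. Further list members, named for their role, were chosen after their values were seen.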

Additional observations from a re-analysis of the deposited data

Results flagged for a closer look

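A sample was listed here where the gap between the highest or lowest aorta of a group and its nearest neighbour, divided by the range of the group, exceeded 0.71 (Dixon's test, 5 samples). Levels of genes were taken as log2(FPM + 0.5), which shrinks the gaps of high values. Only Egfr, the 22 genes called by the exact, likelihood ratio and DESeq2 tests, and the scores of gene sets were examined. Other genes far higher in R-16, such as Prg4 and Itgam, were not. Of 104 groups examined, 8 passed, where chance at 1 in 20 gives 5.2. In KO, R-16 stood above the other 4 aortas in Lyz1 (0.822), in the pseudogene Gm7665 (0.749) and in the scores of lymphoid (0.728) and plasma cell genes (0.777). R-19 stood above them in the score of endothelial activation and leukocyte adhesion genes (0.73), and R-20 in that of fatty acid and cholesterol metabolism (0.796). In WT, R-10 stood above the other 4 in Egfr (0.752) and in the score of elastic fibre and collagen genes (0.75). No gene passed an adjusted p under 0.05 in the test of the difference between the diets with edgeR's quasi-likelihood test, where 127 had an unadjusted p under 0.05.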

How the results depend on the processing

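The 0 calls of the quasi-likelihood test under HFD became 2 (2 pseudogenes) without R-10 or without R-12, 21 (1 protein-coding gene, 20 pseudogenes) without R-1 and R-12, 5 (1 and 4) without these and R-16, and 150 (10 and 139) without these and R-10. Leaving out 1 HFD aorta gave 0 to 2 calls in all, 0 protein-coding genes and 0 to 2 pseudogenes. The exact test called 27 genes (13 and 14), 15 (5 and 9) without R-16, 17 (12 and 5) without R-19 and 127 (27 and 100) without R-1 and R-12. The likelihood ratio test called 28 (13 and 15), and 16 (5 and 10), 19 (13 and 6) and 149 (33 and 115) in the same order. DESeq2 called 25 (9 and 16), and 20 (6 and 14), 12 (5 and 7) and 142 (27 and 115). The cause of these differences was not tested. Egfr kept its call under 35 alternatives (0.05 to 0.24 on the log2 scale). Calls remained 0 for SFD (30 alternatives), the interaction (29) and kidney (21). Leaving out R-12 alone, leaving out R-16 or R-10 together with R-1 and R-12, and the other tests without libraries were chosen after seeing the data. Without 1 HFD aorta, the median of a gene list moved by more than the SD of its score between replicates for vasoactive genes (0.01 without R-20), brown adipocytes (-1.21 without R-19), lymphoid cells (-0.40 without R-16), red blood cells (-2.15 without R-16), clock (0.11 without R-7) and cell cycle genes (0.39 without R-7). Other medians moved within that SD but by over 1.5 times, such as ERK targets (0.68 to 1.31), EGFR adaptors (0.004 to 0.26), endothelial identity (0.13 to 0.48), matrix (0.04 to 0.27), white adipocyte (-0.68 to -0.25) and cardiac genes (-0.70 to -0.11). Those of the EGFR family (-0.04 to 0.18) and fatty acid genes (-0.07 to 0.08) changed sign. That of red blood cell genes also changed sign, to 0.82 without R-7. The exact test gives no interaction value, and no pseudogene count exists without pseudogenes. No paired analysis was possible because the HFD groups share no replicate numbers in the labels. With 5 aortas a group, the permutation test of 1 gene cannot give a p below 0.00794.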
